A study of Mus musculus with 6 samples.

Results

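The genes described here are 45 genes of mitosis and of the passage from G2 into mitosis, chosen by name from knowledge of the cell cycle and looked up in a table of gene counts. All 45 were present among its 18512 entries, and all 45 had enough counts to be tested. They comprise cyclins and Cdk1, the phosphatases and Polo kinase that act at mitotic entry, Aurora kinases and their partners, checkpoint and kinetochore proteins, kinesins, spindle and cytokinesis proteins, anaphase proteins, 2 genes often used to mark dividing cells, and 2 transcription factors.

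Entry into mitosis is driven by Cdk1 bound to A-type and B-type cyclins, after Cdc25 phosphatases have removed its inhibitory phosphates. The spindle checkpoint then holds anaphase until every kinetochore is attached to microtubules, when Cdc20 and the anaphase-promoting complex (APC/C) start the destruction of securin and cyclin B. The transcripts of many of these proteins accumulate in G2 and mitosis of each cycle, and TGF-β is known as an inhibitor of proliferation in many epithelial cells.

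NMuMG is an established mouse mammary epithelial cell line, and the study asked how 2-aminoethoxydiphenylborane (2APB), a compound that blocks the entry of calcium that follows emptying of internal stores, alters the response of these cells to TGF-β. Poly(A) RNA was sequenced from 3 groups with 2 biological replicates each, or 6 libraries. The DMSO group received the vehicle, the TGF-β group received TGF-β at 5 ng/ml, and the TGF-β+2APB group received the same dose of TGF-β together with 2APB at 50 µM, with a treatment time of 24 h. In the study's protocol for these treatments the cells were first held without serum for 4 h, with DMSO as with the agents. The study's treatment protocol places 2APB before TGF-β, and the order used for sequencing was not settled from the sources used here. No library analysed here received 2APB alone, so an effect of 2APB without TGF-β cannot be told apart from one that needs TGF-β. The libraries held 71840570 to 79473182 counts, and the counts of the 45 genes ran from 110 (Cdc25c with TGF-β+2APB) to 18608 (Top2a with TGF-β).

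Marker genes gave a mixed picture of the label. The epithelial genes Cdh1, Krt8 and Krt18 were abundant and did not move alike. Cdh1 had 91231 and 90652 normalized counts in DMSO, 58644 and 47268 under TGF-β, then 35078 and 41083 under TGF-β+2APB, and Krt19 was also lower in both treated groups. Krt8 had 252797 and 234557 normalized counts in DMSO, 413392 and 355754 under TGF-β, then 729718 and 700826 under TGF-β+2APB, and Krt18 had 173792 and 161096 normalized counts in DMSO, 340788 and 291157 under TGF-β, then 608802 and 563306 under TGF-β+2APB. Krt8 and Krt18 were called higher in all 3 comparisons, and Krt7 with TGF-β+2APB against both other groups. Epcam was low, at 128 and 163 normalized counts in DMSO. Against DMSO it was called lower with TGF-β (-1.42, edgeR FDR 0.0141) and with TGF-β+2APB (-0.97, edgeR FDR 0.0380). Cldn4 had 1.97 and 6.20 normalized counts in DMSO, 713 and 743 under TGF-β, then 2088 and 1530 under TGF-β+2APB. Cldn4 was called higher on adding 2APB (1.31, edgeR FDR 0.0163). Of the mammary luminal genes, Elf5 and Esr1 held at most 17.7 normalized counts in any library, and Prlr at most 21.6. Foxa1 held 128 to 255, and Gata3 had 33.4 and 28.9 normalized counts in DMSO, 156 and 147 under TGF-β, then 168 and 148 under TGF-β+2APB. Csn3 had 0 and 6.20 normalized counts in DMSO, 33.1 and 51.9 under TGF-β, then 5.94 and 1.97 under TGF-β+2APB, and its change was not tested. The basal genes Krt5, Krt14 and Trp63 were at or near 0 in every library, and Acta2 had 19.7 and 10.3 normalized counts in DMSO, 107 and 47.8 under TGF-β, then 91.1 and 86.9 under TGF-β+2APB. Both Gata3 (2.28) and Acta2 (2.36) were called higher with TGF-β. Of 6 hepatocyte genes looked at, the summed level was 472682 and 461487 normalized counts in DMSO, 218128 and 343658 under TGF-β, then 540805 and 604355 under TGF-β+2APB, and Apob had the highest count in every library (532265 and 592892 with TGF-β+2APB). The other 5 were lower in both treated groups than in DMSO. Hnf4a had 42589 and 41991 normalized counts in DMSO, 19128 and 14076 under TGF-β, then 8492 and 11436 under TGF-β+2APB. Alb, the gene of serum albumin, stood at 31588 and 28837 normalized counts in DMSO, against 93.6 and 41.5 under TGF-β, then 39.6 and 19.7 under TGF-β+2APB, where Ttr, Apoa1 and Fga held at most 7.92. Between the TGF-β+2APB replicates, the leukocyte genes Ptprc (35.7 and 742) and Cd68 (119 and 619.9) differed several-fold, and Cd3e was at 0 in 5 libraries. The 5 immune genes measured summed to 17281 and 15979 normalized counts in DMSO, 12823 and 9308 under TGF-β, then 3578 and 6854 under TGF-β+2APB, mostly Cd14. Cd14 was called lower on adding 2APB (-1.29, edgeR FDR 0.0247), as most of the mitotic genes were. The part of these markers in the results was not tested.

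The 2 TGF-β libraries differed from each other in a way that reached several mitotic genes. Kif20b was 1.78 higher on the log2 scale in TGF-β replicate 2 than in replicate 1, Cenpe 1.41, Cenpf 1.38 and Hmmr 1.20. These were the 4 of the 45 genes that differed by 1 or more, where 6.16% of all genes tested did. The median absolute log2 difference between the TGF-β libraries was 0.216 for the 45 and 0.220 for all genes, so the 45 did not stand out. Across genes, this replicate difference was related to base composition. Its rank correlation with the GC percentage of the longest transcript was -0.554 over 13226 genes and -0.722 over the 45, against -0.141 and -0.114 for the DMSO pair and 0.253 and 0.352 for the TGF-β+2APB pair (genes are not independent replicates). AT-rich genes such as these 4 were low in TGF-β replicate 1, but Mad2l1 and Nuf2, also AT-rich, differed by only 0.069 and 0.088 between the TGF-β libraries. In DMSO, replicate 2 was above replicate 1 for 44 of the 45 genes, compared with 43% of all genes tested, by a median of 0.203 in absolute log2 difference against 0.0655 for all genes, and small changes from DMSO depended on which DMSO library was used.

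**Figure D1:**
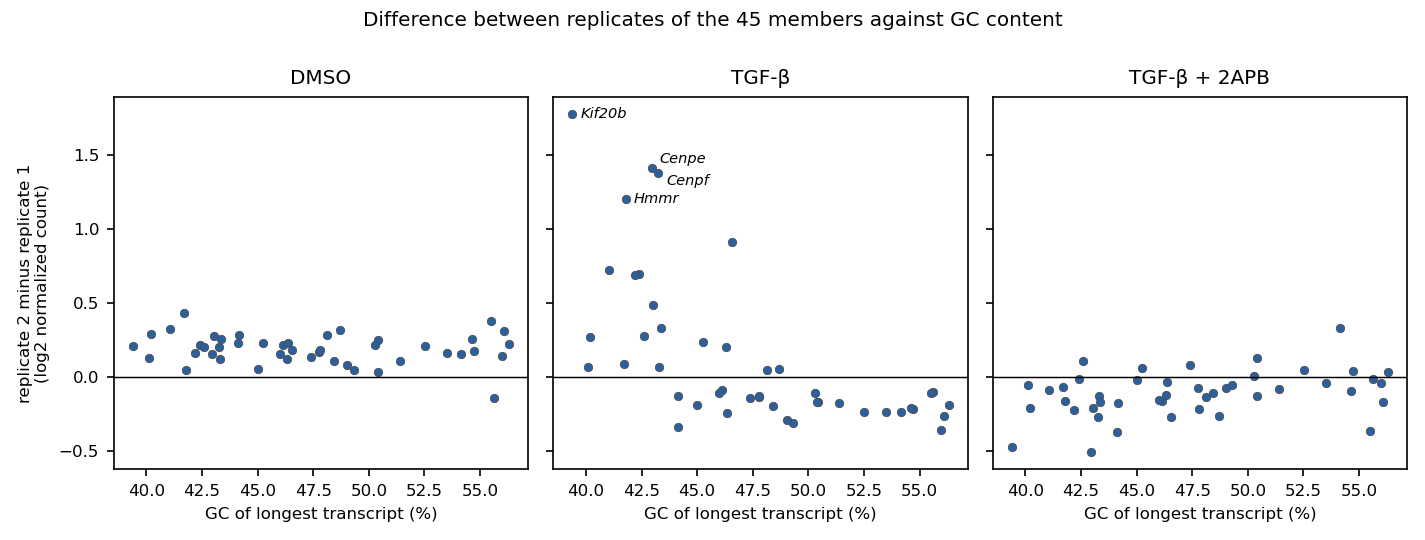
Log2 difference between replicate 2 and replicate 1 (vertical axis) against the GC percentage of the longest annotated transcript (horizontal axis) for the 45 genes in each of the 3 groups. With TGF-β the AT-rich genes Kif20b, Cenpe, Cenpf and Hmmr lie 1 or more above 0, while none of the 45 reaches 1 in DMSO or with TGF-β+2APB. Of all genes tested, 6.16% differed by 1 or more with TGF-β, 2.22% in DMSO and 4.83% with TGF-β+2APB.

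Adding 2APB to TGF-β was accompanied by lower counts of nearly all the mitotic genes. At an FDR of 0.05 or less in edgeR's quasi-likelihood test, 39 of 45 were lower with TGF-β+2APB than with TGF-β, where 10.9% of the 13355 genes tested were called lower. None was higher by edgeR, where 6.58% of all genes were called higher. At an unadjusted p of 0.05 or less 0 were higher, where 1871 of the 13355 genes were. By DESeq2 0 were higher, where 1476 were. In the lower direction 41 passed the unadjusted p, where 2608 of all genes did, and 40 passed by DESeq2, where 1905 did. The median log2 fold change of the 45 was -1.30, with a range from -2.09 (Ccnb2) to -0.10 (Ube2s), against a median of -0.0036 over all genes tested. In 42 of 45 genes both TGF-β+2APB libraries lay below both TGF-β libraries, a pattern shown by 31% of all genes tested. Kif20b, Hmmr and Ube2s overlapped. Without TGF-β replicate 1, 43 genes were lower, including the same 39 and also Cenpe, Cenpf, Kif20b and Hmmr, where 15.2% of all genes were. In bulk RNA a smaller share of cells in G2 and mitosis and less of each transcript per cell cannot be told apart.

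TGF-β alone gave smaller and mixed differences. Relative to DMSO, 14 of 45 genes were higher with TGF-β, where 21.8% of all genes tested were, and 2 were lower (Cdc20 and Kif23), where 19.7% of all genes were. The median was 0.16 (0.0347 without DMSO replicate 1 and 0.27 without DMSO replicate 2), with a range from -0.49 (Hmmr, 0.0007 without TGF-β replicate 1) to 1.06 (Mybl2), and the median of all genes was -0.0103. The share of the 45 that was higher was not far above that of all genes. The number also depended on single libraries: 4 genes were higher without DMSO replicate 1, where 11.1% of all genes were, 8 without DMSO replicate 2, where 11.4% were, 13 without TGF-β replicate 1, where 26.9% were, and 15 without TGF-β replicate 2, where 29% were. The 4 that were higher in each of these fits were Prc1, Anln, Ube2s and Mybl2. Neither of the 2 lower genes was called with only the 4 libraries compared. With 1 library left out their log2 fold changes ran from -0.42 to -0.28 for Cdc20 and from -0.43 to -0.22 for Kif23. Those of Cenpe, Cenpf, Ndc80, Kif11, Kif20b, Hmmr and Mki67 depended on the TGF-β library. They ran from -1.29 (Kif20b) to -0.56 (Ndc80) without TGF-β replicate 2, and from -0.11 (Kif11) to 0.49 (Kif20b) without TGF-β replicate 1.

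Compared with DMSO, cells that received both TGF-β and 2APB had lower counts of 40 of 45 genes, where 27.2% of all genes were called lower, and higher counts of 2 (Ube2s and Espl1), where 25.6% were called higher. Espl1 was not called without DMSO replicate 1 or either TGF-β+2APB library (edgeR FDR 0.0672 to 0.194), which left 1 gene higher each time. Incenp, Mybl2 and Kif20b were not called. The median log2 fold change was -1.11. This comparison shares its TGF-β+2APB libraries with the comparison to TGF-β and its DMSO libraries with the comparison of TGF-β to DMSO, so the values are given side by side and are not independent. The normalized counts of the 45 genes summed to 110022 and 125220 in DMSO, 129380 and 144281 under TGF-β, then 64497 and 59604 under TGF-β+2APB. By this sum both TGF-β libraries were above both DMSO libraries, and both TGF-β+2APB libraries were far below all the others.

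**Figure D2:**
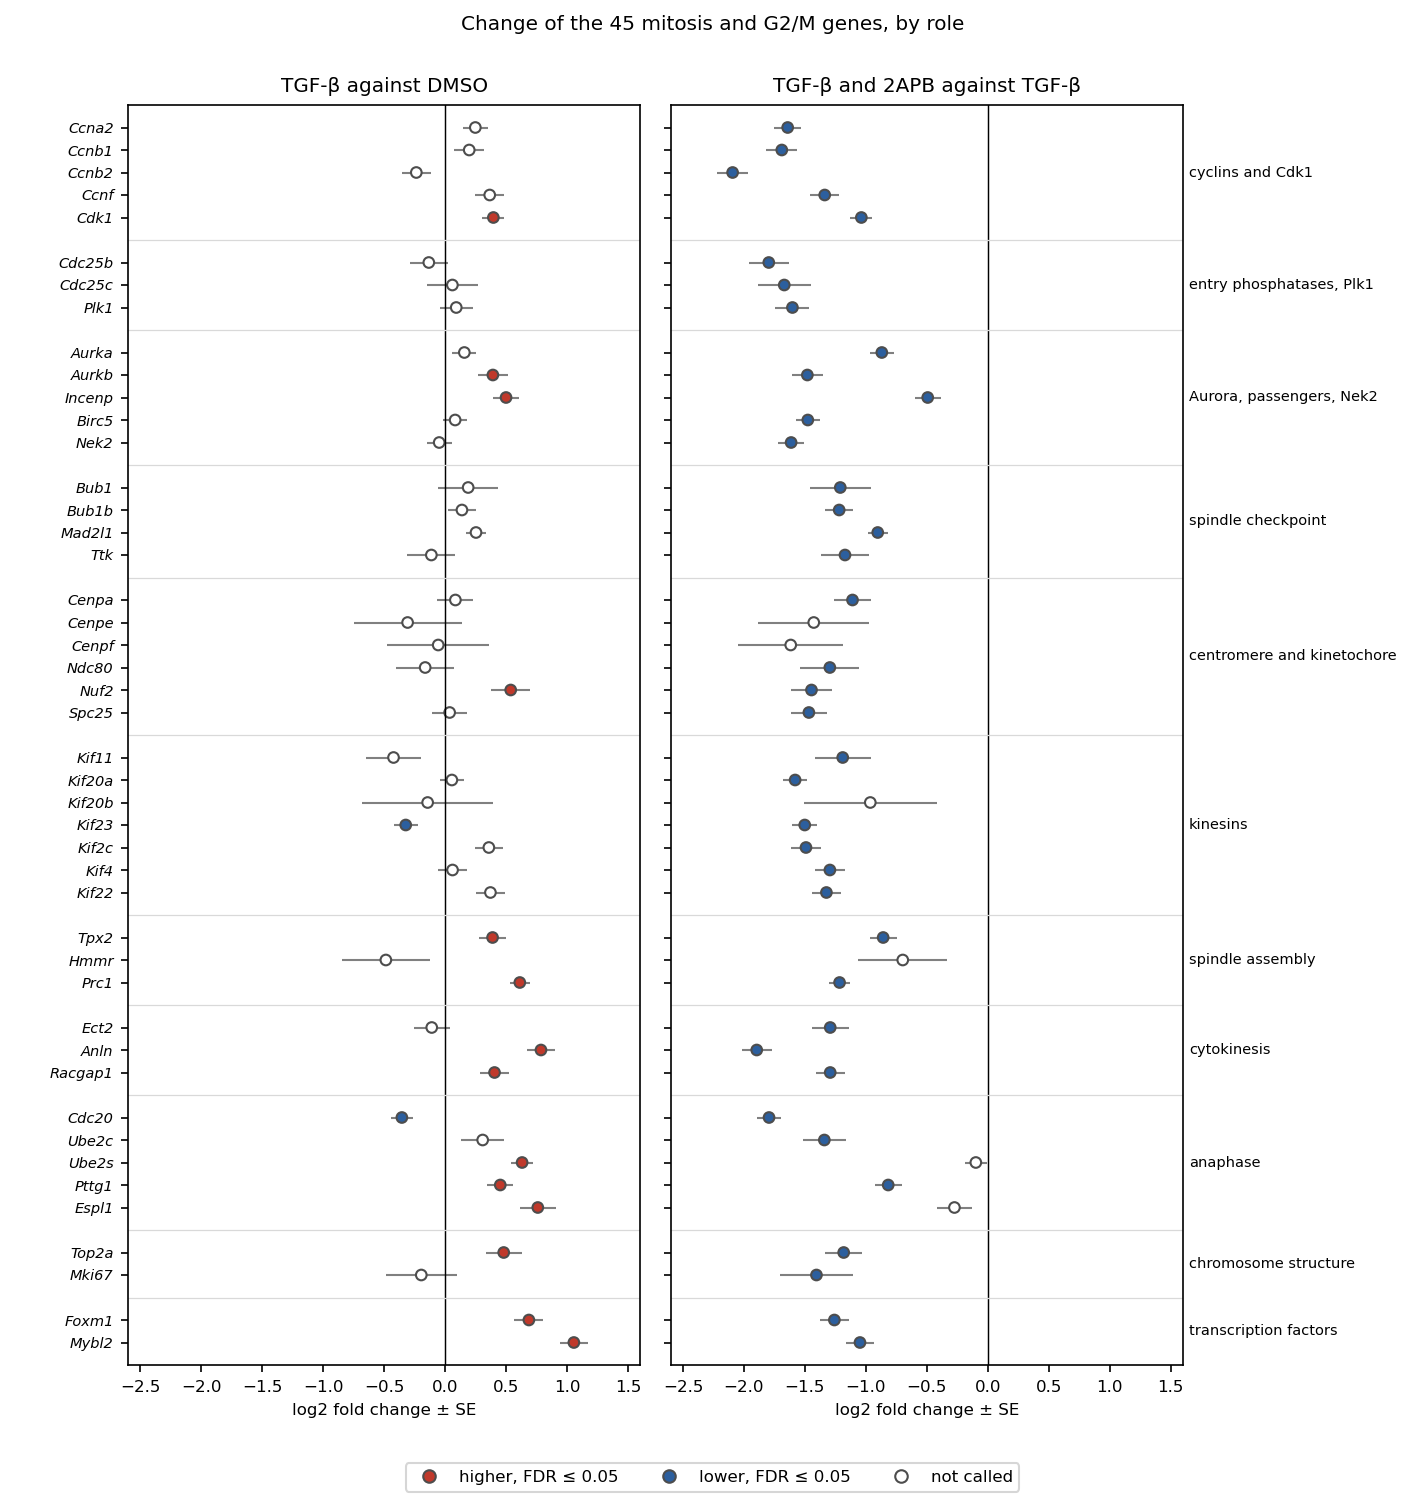
Log2 fold changes with standard errors (horizontal axis) of the 45 genes, ordered by role (vertical axis), for TGF-β against DMSO (left) and TGF-β+2APB against TGF-β (right), with filled points for an edgeR FDR of 0.05 or less. In this fit of all 6 libraries, with 2APB added all 45 genes lie to the left of 0, while the changes with TGF-β alone scatter from -0.49 to 1.06.

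Among the cyclins, Ccnb2, a B-type cyclin that binds Cdk1 (chr9:70407692-70421547, GRCm38), had 1868 and 1931 normalized counts in DMSO, 1783 and 1441 under TGF-β, then 384 and 371 under TGF-β+2APB. The TGF-β+2APB libraries were far below the others and did not overlap them, and Ccnb2 had the largest of all 45 changes between TGF-β+2APB and TGF-β (log2 fold change -2.09, SE 0.126, edgeR FDR 0.00270). With TGF-β alone it was not called in the fit of all libraries (log2 fold change -0.24, SE 0.120, edgeR FDR 0.169), but without TGF-β replicate 1 it was called lower (-0.39, edgeR FDR 0.0140). Cdk1, the kinase itself (chr10:69335146-69352938), had 3377 and 3795 normalized counts in DMSO, 4929 and 4506 under TGF-β, then 2357 and 2241 under TGF-β+2APB. Its 3 groups were separate, highest with TGF-β and lowest with TGF-β+2APB. It rose with TGF-β (log2 fold change 0.40, SE 0.0898, edgeR FDR 0.0172) and was lower with 2APB added (log2 fold change -1.04, SE 0.0908, edgeR FDR 0.00398). The rise was lost without DMSO replicate 1 (edgeR FDR 0.144) or DMSO replicate 2 (0.0514). Ccna2 (cyclin A2), Ccnb1 (cyclin B1) and Ccnf, an F-box cyclin that serves a ubiquitin ligase and does not activate a kinase, had log2 fold changes of -1.34 to -1.69 with 2APB added and were not called between TGF-β and DMSO in the fit of all libraries. Ccnf was near the threshold (0.37, edgeR FDR 0.0524) and was called higher without TGF-β replicate 2 (0.0132), by DESeq2 (0.0406) and with the GC correction (0.0275).

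The 3 genes that switch Cdk1 on at mitotic entry fell by similar amounts with 2APB added. Plk1, the Polo kinase that promotes entry and later acts at centrosomes, kinetochores and the midzone (chr7:122159439-122169873), had 1733 and 1910.1 normalized counts in DMSO, 2179 and 1701 under TGF-β, then 648 and 629.7 under TGF-β+2APB. The DMSO and TGF-β libraries were interleaved, and both TGF-β+2APB libraries were lower than all of them (log2 fold change -1.60, SE 0.140, edgeR FDR 0.00395). Between TGF-β and DMSO it was not called (log2 fold change 0.091, SE 0.135, edgeR FDR 0.626; log2 fold change -0.093 without TGF-β replicate 1). Cdc25b, the phosphatase that first activates Cdk1 (chr2:131186949-131198497), had 863 and 961 normalized counts in DMSO, 898 and 764 under TGF-β, then 212 and 267 under TGF-β+2APB. Again only the TGF-β+2APB libraries stood apart, with the third largest fall among the 45 (log2 fold change -1.80, SE 0.163, edgeR FDR 0.00416). Cdc25b was not called for TGF-β against DMSO (log2 fold change -0.13, SE 0.156, edgeR FDR 0.531; log2 fold change -0.25 without TGF-β replicate 1 and -0.022 without TGF-β replicate 2). Cdc25c, its relative acting in mitosis, had a log2 fold change of -1.67 (edgeR FDR 0.00862).

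Of the Aurora kinases, the chromosomal passengers and Nek2, 5 of 5 genes were lower with 2APB added, where 10.9% of all genes were, but not to a like extent. Nek2, a kinase that separates centrosomes, had 1247 and 1275 normalized counts in DMSO, 1290.2 and 1148 under TGF-β, then 380.3 and 417 under TGF-β+2APB. The 4 libraries without 2APB lay close together and the 2 with it far below them (log2 fold change -1.61, SE 0.107, edgeR FDR 0.00307), while TGF-β against DMSO was among the smallest of the 45 differences (log2 fold change -0.049, SE 0.104, edgeR FDR 0.735; log2 fold change 0.033 without TGF-β replicate 2). Incenp, the scaffold of the chromosomal passenger complex (chr19:9872296-9899551), had 4019.8 and 4554 normalized counts in DMSO, 6514 and 5608 under TGF-β, then 4247 and 4369 under TGF-β+2APB. It was highest with TGF-β, and the TGF-β+2APB libraries lay between the 2 DMSO libraries. It rose with TGF-β (log2 fold change 0.50, SE 0.106, edgeR FDR 0.0134; 0.113 without DMSO replicate 1) and was lower with 2APB added (log2 fold change -0.49, SE 0.106, edgeR FDR 0.0306). This last call was lost without either DMSO library or either TGF-β+2APB library (edgeR FDR 0.0755 to 0.154). Against DMSO its log2 fold change was 0.0071 (edgeR FDR 0.961), and -0.0802 without DMSO replicate 1. Aurkb, the kinase of that complex, Birc5 (survivin), which anchors it, and Aurka, which acts at spindle poles, were also lower, with log2 fold changes of -0.87 to -1.48. Aurkb passed the threshold narrowly with TGF-β (log2 fold change 0.39, SE 0.122, edgeR FDR 0.0481), and lost the call without any 1 library other than TGF-β replicate 2 (edgeR FDR 0.0854 to 0.267).

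The checkpoint genes Bub1, Bub1b, Mad2l1 and Ttk were all 4 lower with 2APB added, where 10.9% of all genes were. None was called between TGF-β and DMSO, where 21.8% of all genes were higher and 19.7% lower. There edgeR called 0 in either direction, DESeq2 0, and 1 passed an unadjusted p of 0.05. Of the 13355 genes tested, 3512 were higher and 3220 lower at that unadjusted p, and 3163 and 2934 by DESeq2. Bub1b, which encodes the checkpoint protein BubR1, had 3294 and 3915 normalized counts in DMSO, 4190.4 and 3742 under TGF-β, then 1779 and 1629 under TGF-β+2APB. The DMSO and TGF-β libraries overlapped and both TGF-β+2APB libraries were below them all (log2 fold change -1.22, SE 0.116, edgeR FDR 0.00457). Between TGF-β and DMSO it was not called (log2 fold change 0.14, SE 0.113, edgeR FDR 0.376; log2 fold change 0.019 without DMSO replicate 1 and 0.27 without DMSO replicate 2). Bub1 and Ttk, both checkpoint kinases, were low in TGF-β replicate 1, and their log2 fold changes were -1.21 and -1.17 with 2APB added. The call of Bub1 was lost without either DMSO or either TGF-β+2APB library (edgeR FDR 0.0658 to 0.0969), and that of Ttk without TGF-β+2APB replicate 2 (0.0635). Without TGF-β replicate 2 the change of Bub1 with 2APB added was -0.81. Without TGF-β replicate 1, Bub1 and Mad2l1 were called higher with TGF-β than in DMSO (edgeR FDR 0.0408 and 0.0330), Mad2l1 having an FDR of 0.0510 with all libraries, while Bub1 gave -0.22 (0.288) without TGF-β replicate 2. Mad2l1, the Mad2 protein that binds Cdc20, had the smallest change of the 4 (-0.90).

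Some kinetochore genes differed widely between the TGF-β replicates. Cenpf, a large protein that joins the outer kinetochore in G2, had 2706 and 3117 normalized counts in DMSO, 1555 and 4045 under TGF-β, then 996 and 829 under TGF-β+2APB. TGF-β replicate 1 lay below both DMSO libraries and replicate 2 above both, and the TGF-β+2APB libraries were lower than all 4. With 2APB added it was not called in the fit of all libraries (log2 fold change -1.62, SE 0.432, edgeR FDR 0.0559), but it was called lower both without TGF-β replicate 1 (-2.14, edgeR FDR 0.00406) and without TGF-β replicate 2 (-0.77, 0.0130), and by DESeq2 with all libraries (0.0167). For TGF-β against DMSO its log2 fold change was -0.057 (SE 0.418, edgeR FDR 0.928), and it went from -0.90 without TGF-β replicate 2 to 0.48 without replicate 1, past the threshold both times (edgeR FDR 0.00532 and 0.0394). Against DMSO it was lower with TGF-β+2APB (log2 fold change -1.67, SE 0.433, edgeR FDR 0.0209), a call lost without either DMSO or either TGF-β+2APB library (edgeR FDR 0.0539 to 0.0874). Cenpe, a kinesin of the kinetochore, was not called with 2APB added (-1.43, edgeR FDR 0.0893) in the fit of all libraries, but it was called lower without TGF-β replicate 1 (-1.97, 0.00615), with the GC correction (-1.40, 0.0417) and with the crossed replicate block (0.0372). Without TGF-β replicate 2 the change of Cenpe with 2APB added was -0.55 (0.0957), and with the replicate number as a block its FDR was 0.162. Spc25, a subunit of the Ndc80 complex that binds microtubules, had 724 and 833 normalized counts in DMSO, 721 and 876 under TGF-β, then 277 and 300.1 under TGF-β+2APB. The libraries without 2APB were interleaved and those with it lay below them (log2 fold change -1.47, SE 0.148, edgeR FDR 0.00501). TGF-β against DMSO gave one of the smallest differences for Spc25 (log2 fold change 0.037, SE 0.144, edgeR FDR 0.857), with -0.061 without DMSO replicate 1 and -0.11 without TGF-β replicate 2. Ndc80, Nuf2 and Cenpa, the histone variant of centromeres, had log2 fold changes of -1.11 to -1.45, with the call of Ndc80 lost without either DMSO or either TGF-β+2APB library (edgeR FDR 0.0604 to 0.0786). Of the 6 kinetochore genes 1, Nuf2, was called higher with TGF-β (log2 fold change 0.54, SE 0.161, edgeR FDR 0.0426), where 21.8% of all genes were. The call of Nuf2 was lost without any 1 library other than DMSO replicate 2, and its log2 fold change was 0.34 without DMSO replicate 1. Without TGF-β replicate 2, Cenpe and Ndc80 were called lower with TGF-β (-1.18 and -0.56, edgeR FDR 0.00874 and 0.0269), whereas without TGF-β replicate 1 they gave 0.24 and 0.15 (0.377 and 0.402).

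Of 7 kinesins, 6 were lower with 2APB added, where 10.9% of all genes were. Kif23, the kinesin of centralspindlin at the midzone (chr9:61915905-61946774), had 5418 and 5898 normalized counts in DMSO, 4200.1 and 4844 under TGF-β, then 1662 and 1532 under TGF-β+2APB. The 3 groups were separate and fell in the order DMSO, TGF-β, TGF-β+2APB. It was 1 of the 2 genes lower with TGF-β (log2 fold change -0.32, SE 0.0998, edgeR FDR 0.0469), a call lost without either DMSO library, TGF-β replicate 1 or either TGF-β+2APB library (edgeR FDR up to 0.251), and it was lower again with 2APB added (log2 fold change -1.50, SE 0.103, edgeR FDR 0.00307). Kif20a, a kinesin that carries the passenger complex to the midzone, had 3522 and 3809.8 normalized counts in DMSO, 4066 and 3553 under TGF-β, then 1321 and 1226 under TGF-β+2APB. The libraries without 2APB overlapped (log2 fold change 0.055, SE 0.0961, edgeR FDR 0.678 for TGF-β against DMSO; log2 fold change -0.039 without TGF-β replicate 1 and -0.0002 without DMSO replicate 1) and those with it were below them all (log2 fold change -1.58, SE 0.0991, edgeR FDR 0.00292). Kif20b, which acts late in cytokinesis, was not called in any comparison in the fit of all libraries, and with 2APB added its log2 fold change was -0.96 (edgeR FDR 0.275), against -1.59 (0.00889) without TGF-β replicate 1 and 0.18 (0.529) without TGF-β replicate 2. Against DMSO it was called lower with TGF-β+2APB without TGF-β replicate 1 or 2 (edgeR FDR 0.00368 and 0.00345). Kif11, which pushes spindle poles apart, Kif2c, which shortens microtubules, and the chromosome-bound Kif4 and Kif22 had log2 fold changes of -1.19 to -1.49 with 2APB added, and that of Kif11 lost its call without either DMSO or either TGF-β+2APB library (edgeR FDR 0.0615 to 0.0830). Without TGF-β replicate 2 several kinesins passed the threshold between TGF-β and DMSO, Kif11 and Kif20b downwards (edgeR FDR 0.00390 and 0.00666) and Kif2c and Kif22 upwards (0.0483 and 0.00521). Without TGF-β replicate 1 the log2 fold change of TGF-β against DMSO was -0.11 for Kif11 and 0.49 for Kif20b (edgeR FDR 0.467 and 0.101), against -0.81 and -1.29 without replicate 2. Kif2c and Kif22 were also called higher with the GC correction (0.0478 and 0.0359).

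Of the 6 genes of spindle assembly and cytokinesis, 4 were higher with TGF-β, where 21.8% of all genes were, and 5 were lower with 2APB added, where 10.9% were. Anln, the actin-binding anillin of the contractile ring (chr9:22332012-22389188), had 3548 and 4161 normalized counts in DMSO, 6097 and 7199 under TGF-β, then 1747 and 1826 under TGF-β+2APB. The TGF-β libraries were the highest and the TGF-β+2APB libraries the lowest, with no overlap. Anln rose with TGF-β (log2 fold change 0.79, SE 0.118, edgeR FDR 0.00401) and then had the second largest fall of the 45 with 2APB added (log2 fold change -1.90, SE 0.122, edgeR FDR 0.00297). Prc1, which bundles antiparallel microtubules at the midzone (chr7:80294450-80316259), had 2991 and 3252 normalized counts in DMSO, 4656 and 4889.8 under TGF-β, then 2143 and 1966 under TGF-β+2APB. The order of the groups was the same, with a rise with TGF-β (log2 fold change 0.61, SE 0.0816, edgeR FDR 0.00266) and a fall with 2APB added (log2 fold change -1.22, SE 0.0827, edgeR FDR 0.00307). Tpx2, which targets Aurora A to the spindle, and Racgap1, the partner of Kif23, were also higher with TGF-β (0.39 and 0.41), though neither was called without either DMSO library or TGF-β replicate 1 (edgeR FDR up to 0.219 and 0.229), nor Racgap1 without either TGF-β+2APB library (0.0725 and 0.0709). With 2APB added their log2 fold changes were -0.86 and -1.29. Against DMSO, Tpx2 was lower with TGF-β+2APB (-0.47), but not without DMSO replicate 2 or TGF-β+2APB replicate 2 (edgeR FDR 0.107 and 0.122). Ect2, which activates RhoA at the furrow, fell with 2APB added (-1.29) and was not called with TGF-β (-0.11, edgeR FDR 0.586; 0.043 without DMSO replicate 2 and 0.024 without TGF-β replicate 1). Hmmr, a spindle-associated protein, was not called with 2APB added (-0.70, edgeR FDR 0.245) in the fit of all libraries. It was called lower without TGF-β replicate 1 (-1.18, 0.00487), and without TGF-β replicate 2 its log2 fold change was 0.027 (0.853). With TGF-β against DMSO, Hmmr was called lower without TGF-β replicate 2 (-1.21, 0.000817), and without TGF-β replicate 1 it gave 0.0007 (0.996).

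The 5 anaphase genes split. Cdc20, the activator of the APC/C that the checkpoint holds back (chr4:118432901-118437352), had 1782 and 1614 normalized counts in DMSO, 1372 and 1283 under TGF-β, then 384 and 381 under TGF-β+2APB. The groups were separate and fell in the order DMSO, TGF-β, TGF-β+2APB. Cdc20 was lower with TGF-β (log2 fold change -0.35, SE 0.0933, edgeR FDR 0.0279), a call lost without either DMSO library or either TGF-β+2APB library (edgeR FDR 0.0870 to 0.213), and much lower with 2APB added (log2 fold change -1.79, SE 0.0975, edgeR FDR 0.00234). Ube2c, the ubiquitin-conjugating enzyme that starts chains on APC/C substrates, and Pttg1 (securin), one of those substrates, had log2 fold changes of -1.34 and -0.82. Pttg1 was lower with 2APB added except without TGF-β+2APB replicate 2 (edgeR FDR 0.0508), and it was higher with TGF-β (0.45) except without DMSO replicate 1 or 2 (0.156 and 0.0702). By contrast Ube2s, the enzyme that extends those chains (chr7:4794546-4812590), had 4694 and 4889 normalized counts in DMSO, 7909 and 6937 under TGF-β, then 6987 and 6888 under TGF-β+2APB. Both treated groups lay above DMSO and overlapped each other. Ube2s rose with TGF-β (log2 fold change 0.63, SE 0.0881, edgeR FDR 0.00309), was not called with 2APB added (log2 fold change -0.10, SE 0.0877, edgeR FDR 0.484) and was higher with TGF-β+2APB than in DMSO (log2 fold change 0.53, SE 0.0880, edgeR FDR 0.00396). Without TGF-β replicate 2 the difference with 2APB added was called (-0.19, edgeR FDR 0.0487), and without TGF-β replicate 1 it was 0.0018. Espl1, the separase that cleaves cohesin (chr15:102296266-102324357), had 1156 and 1439 normalized counts in DMSO, 2393 and 2002 under TGF-β, then 1923 and 1714 under TGF-β+2APB. The order was TGF-β, TGF-β+2APB, DMSO, without overlap. It rose with TGF-β (log2 fold change 0.76, SE 0.148, edgeR FDR 0.009997), a call lost without DMSO replicate 1. With 2APB added Espl1 was not called (log2 fold change -0.27, SE 0.147, edgeR FDR 0.254; log2 fold change -0.14 without TGF-β replicate 1 and -0.40 without TGF-β replicate 2). It was higher with both than in DMSO (log2 fold change 0.49, SE 0.148, edgeR FDR 0.0361). The last call was lost without DMSO replicate 1 or either TGF-β+2APB library (edgeR FDR 0.0672 to 0.194).

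**Figure D3:**
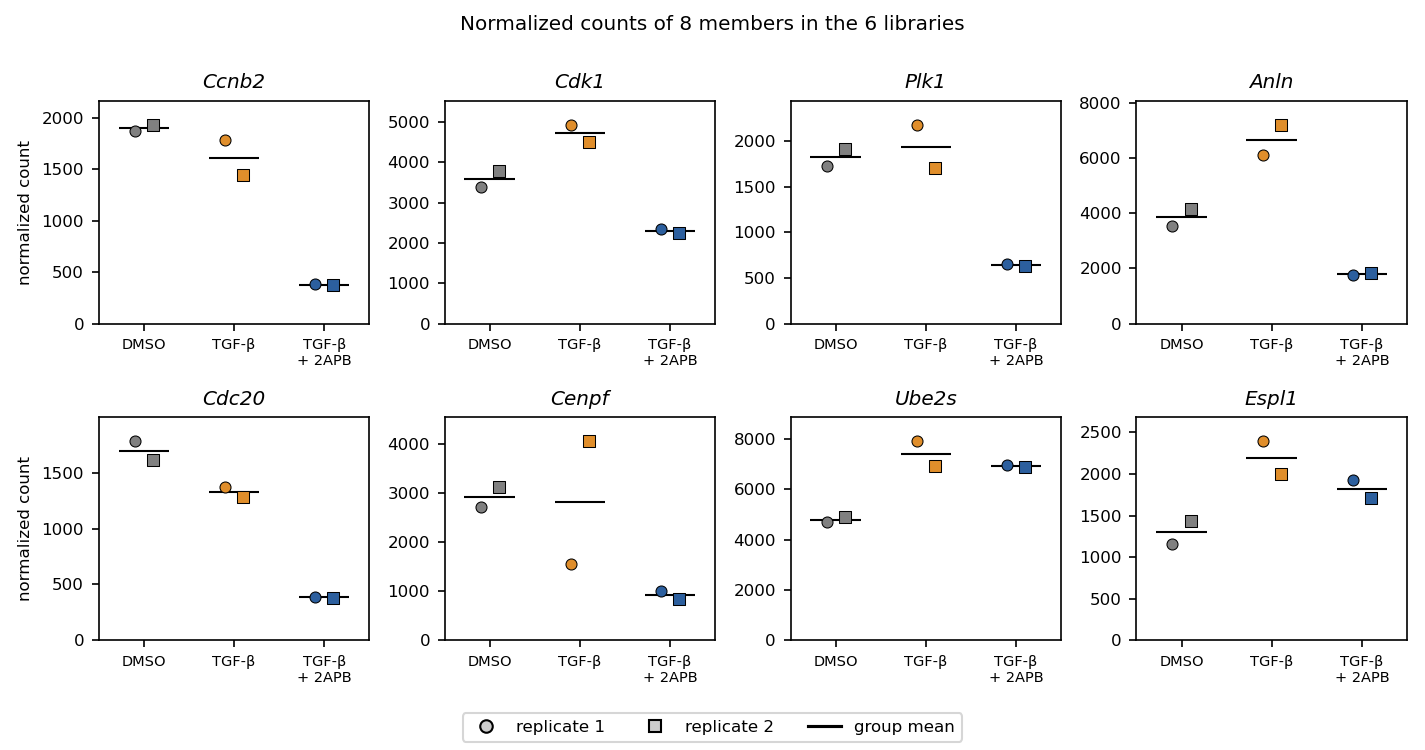
Normalized counts per library (vertical axis, starting at 0) of Ccnb2, Cdk1, Plk1, Anln, Cdc20, Cenpf, Ube2s and Espl1 in DMSO, TGF-β and TGF-β+2APB (horizontal axis), with 1 point for each of the 2 replicates and a bar at their mean. The TGF-β+2APB points are the lowest of all for Ccnb2, Cdk1, Plk1, Anln, Cdc20 and Cenpf, but lie above DMSO for Ube2s and Espl1.

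Top2a, the topoisomerase that untangles chromosomes and marks dividing cells (chr11:98992943-99024189), had 11314 and 13515 normalized counts in DMSO, 15323 and 19318 under TGF-β, then 8074 and 7194 under TGF-β+2APB. The groups were separate, TGF-β highest and TGF-β+2APB lowest (log2 fold change -1.18, SE 0.150, edgeR FDR 0.00797). The rise with TGF-β (log2 fold change 0.48, SE 0.148, edgeR FDR 0.0470) was lost without either DMSO library, TGF-β replicate 2 or either TGF-β+2APB library (edgeR FDR 0.0531 to 0.250; log2 fold change 0.30 without TGF-β replicate 2), and the difference between TGF-β+2APB and DMSO (log2 fold change -0.70, SE 0.149, edgeR FDR 0.0103) without DMSO replicate 2 (0.0715) or TGF-β+2APB replicate 2 (0.0564). Mki67, the gene of the proliferation antigen Ki-67, was lower with 2APB added (-1.41, edgeR FDR 0.0299; 0.0759 to 0.104 without either DMSO or either TGF-β+2APB library; -0.88 without TGF-β replicate 2 and -1.79 without replicate 1) and was not called with TGF-β (-0.20, 0.627), where the 2 TGF-β libraries held 6937 and 13052 normalized counts. Without TGF-β replicate 2, Mki67 was called lower with TGF-β (-0.72, edgeR FDR 0.00981), and without TGF-β replicate 1 its log2 fold change was 0.20.

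Foxm1 and Mybl2 encode transcription factors that act with the MuvB complex on many genes of G2 and mitosis. Foxm1 had 2562 and 3062 normalized counts in DMSO, 4857 and 4198 under TGF-β, then 1955 and 1830.0 under TGF-β+2APB. TGF-β libraries were above DMSO and TGF-β+2APB libraries below it, with no overlap. It rose with TGF-β (log2 fold change 0.69, SE 0.119, edgeR FDR 0.00664; 0.0532 without DMSO replicate 1) and fell with 2APB added (log2 fold change -1.26, SE 0.121, edgeR FDR 0.00462). Against DMSO the combined treatment gave a smaller fall (log2 fold change -0.57, SE 0.120, edgeR FDR 0.00989), lost without DMSO replicate 2 (0.0685) or TGF-β+2APB replicate 2 (0.0760). Mybl2 (chr2:163054687-163084688) had 832 and 974 normalized counts in DMSO, 1999.7 and 1755 under TGF-β, then 897 and 918 under TGF-β+2APB. The TGF-β libraries were about 2 times as high as the others, and the TGF-β+2APB libraries lay between the DMSO libraries. Mybl2 had the largest rise of the 45 with TGF-β (log2 fold change 1.06, SE 0.118, edgeR FDR 0.00141), a fall with 2APB added (log2 fold change -1.05, SE 0.118, edgeR FDR 0.00622) and no call between TGF-β+2APB and DMSO (log2 fold change 0.0079, SE 0.117, edgeR FDR 0.961; log2 fold change -0.10 without DMSO replicate 1).

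In RPKM, that is normalized counts scaled to the length of all annotated exons and to library size, the DMSO level was highest for Top2a (18.01), Ccnb2 (16.2), Mki67 (14.9), Incenp (12.9) and Ube2s (12.2), and lowest for Cdc25c (1.01). On this scale Ccnb2 went from a DMSO level of 16.2 to 3.23 with TGF-β+2APB. Ube2s went from 12.2 to 17.6. The levels are only as good as the match between annotated exons and the transcripts these cells make.

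Some of these genes overlap others in the annotation, and the use of strand in counting is not given in the sources used here, so reads of such pairs cannot be told apart. The 1271 bases shared by Kif20a and Cdc23, an APC/C subunit on the other strand, make up 29.3% of the Kif20a exons. With 2APB added Cdc23 gave a log2 fold change of -0.0898 where Kif20a gave -1.58. Ube2s shares 183 bases (3.56% of its exons) with the ribosomal protein gene Rpl28 on the other strand, which had 37249.6 and 35591 normalized counts in DMSO, 59499.6 and 47471 under TGF-β, then 61773 and 63375 under TGF-β+2APB. Rpl28 was highest in the treated groups, as Ube2s was, and its part in the Ube2s counts was not tested. Prc1 shares 911 bases (11.1%) with Rccd1, which was also higher with TGF-β (0.42, edgeR FDR 0.0413) and was not called with 2APB added (0.19, edgeR FDR 0.335). Ccna2 shares 510 bases (12.5%) with Exosc9 and Kif4 shares 832 (15.1%) with Pdzd11. Both of these neighbours were higher with TGF-β (0.41, edgeR FDR 0.0492 and 0.33, edgeR FDR 0.0210) and not called with 2APB added (0.17, edgeR FDR 0.399 and -0.20, edgeR FDR 0.147). Cdc25c shares 623 bases (12.7%) with Gm3550, which was not analysed here. Ube2c overlaps Tnnc2 over 592 bases, but Tnnc2 held at most 7.90 normalized counts in any library.

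Other genes of mitosis, on 5 lists that left out these 45, were counted in the same way. Of 107 genes on the 5 lists, 43 were lower with 2APB added by edgeR, where 10.9% of all genes were. By edgeR 0 were higher, where 6.58% of all genes were. At an unadjusted p of 0.05 or less 3 were higher, where 1871 of the 13355 genes tested were, and by DESeq2 1 was, where 1476 were. The median log2 fold change was -0.44 against -1.30 for the 45. Among 33 further kinetochore, centromere and checkpoint genes 17 were lower, with Cenpn (-1.71), Oip5 (-1.34) and Kntc1 (-1.19) furthest. Among 23 further spindle, centrosome and cytokinesis genes 13 were lower, led by Fam83d (-2.18), Kif14 (-1.96) and Cep55 (-1.67). Condensin and cohesin genes were lower in 5 of 19, led by Sgo1, the protector of centromeric cohesin (-1.39), Ncapd2 (-1.10) and Ncapg (-1.05). Of 16 genes of the APC/C, 2 were lower, its inhibitor Fbxo5 (-0.78) and Anapc13 (-0.55), a share near the 10.9% of all genes, and the coactivator Fzr1 gave -0.21 (edgeR FDR 0.235). Of 16 regulators of entry and exit, 6 were lower, led by Melk (-1.62), Pbk (-1.32) and Pkmyt1, which inhibits Cdk1 (-1.26), while Wee1, the other such kinase, gave -0.15 (edgeR FDR 0.253). Among these named calls, those of Ncapg and Fbxo5 were lost without either DMSO or either TGF-β+2APB library (edgeR FDR up to 0.154 and 0.119), and that of Anapc13 without either DMSO library or TGF-β+2APB replicate 1 (up to 0.130).

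With TGF-β against DMSO, 24 of the same 107 genes were higher, where 21.8% of all genes were, and 4 were lower, where 19.7% were. Among the genes called, the largest changes on each list were those of Cenpt (0.92), Mad1l1 (0.82) and Nsl1 (0.75) at kinetochores and centromeres, Fam83d (-0.72), Kif18b (0.58) and Cit (0.43) at the spindle and furrow, Cdca5 (0.78) and Ncaph (0.39) in cohesin and condensin, Anapc13 (-0.59), Anapc1 (0.44) and Anapc15 (0.44) in the APC/C, and Cks2 (0.74), Cdc14a (-0.73) and Pbk (0.71) among the regulators of entry and exit. Nsl1, Fam83d and Pbk were not called without DMSO replicate 1 (edgeR FDR 0.0561, 0.0574 and 0.116), and Cit, Anapc13 and Anapc1 were not called without either DMSO library (up to 0.151, 0.0658 and 0.0808). The call of Kif18b was lost without DMSO replicate 1 or either TGF-β library (up to 0.197), that of Ncaph without either DMSO or either TGF-β+2APB library (up to 0.161), and that of Anapc15 without any 1 library other than TGF-β replicate 2 (up to 0.184).

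Regulators that stand upstream of these genes in the cell cycle were measured as well. Of 19 E2F, pocket protein and MuvB genes, 9 were higher and 1 lower with TGF-β, where 21.8% and 19.7% of all genes were, and 4 were lower with 2APB added, where 10.9% were, among them E2f7 (-1.32), E2f8 (-1.06) and E2f1 (-0.43). E2f8 was not called without either TGF-β+2APB library (edgeR FDR up to 0.0581), nor E2f1 without either DMSO or either TGF-β+2APB library (up to 0.158). E2f7, E2f1 and Rbl1 were the furthest of those higher with TGF-β (1.14, 0.73 and 0.71), Rbl1 not without DMSO replicate 1 (edgeR FDR 0.0765), and Lin9, a MuvB subunit, gave -0.13 with 2APB added (edgeR FDR 0.621). Of 7 genes for inhibitors of cyclin-dependent kinases, Cdkn2b (1.26) and Cdkn2a (1.11) rose with TGF-β, where 21.8% of all genes did, and 3 fell, where 19.7% did, Cdkn1c the most (-3.08). With 2APB added 2 of the 7 fell, where 10.9% of all genes did, Cdkn2a (-0.89, edgeR FDR 0.0196) and Cdkn2d (-0.78, 0.0441). By edgeR 0 rose, where 6.58% of all genes did. At an unadjusted p of 0.05 or less 0 rose, where 1871 of the 13355 genes tested did, and by DESeq2 0, where 1476 did. Both falls were lost without either DMSO or either TGF-β+2APB library (edgeR FDR up to 0.0708 and 0.155), and that of Cdkn2d also without TGF-β replicate 1. Cdkn1a, the gene of p21, had 2759 and 2458 normalized counts in DMSO, 1491 and 1246 under TGF-β, then 1389 and 1737 under TGF-β+2APB. Both treated groups lay below DMSO and overlapped each other. Cdkn1a was not called between TGF-β+2APB and TGF-β (log2 fold change 0.19, SE 0.149, edgeR FDR 0.420). Cdkn1b gave -0.11 (edgeR FDR 0.379) and Cdkn2b -0.0034 (0.979) in that comparison.

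Genes of DNA replication and of the passage from G1 into S, the step before those described here, were counted likewise. Of 37 such genes, 30 were higher with TGF-β by edgeR, where 21.8% of all genes were, and 0 lower, where 19.7% were. At an unadjusted p of 0.05 or less 0 were lower, where 3220 of the 13355 genes tested were. By DESeq2 0 were lower, where 2934 were. The median log2 fold change was 0.70 against 0.16 for the mitotic genes. Ccne1 (1.47), Cdc6 (1.36) and Cdc7 (1.09) rose most. With 2APB added 11 of the 37 fell, where 10.9% of all genes did, led by Tk1 (-1.42), Mcm10 (-1.06) and Uhrf1 (-0.95), and the median was -0.34 against -1.30. Against DMSO, TGF-β+2APB left 17 of the 37 higher and 3 lower, where 25.6% and 27.2% of all genes were, with a median of 0.32, where the 45 mitotic genes had -1.11. The difference between the 2 lists was not tested.

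Promoter sequence was looked at because most of the 45 genes moved together, in windows from 250 bases before to 50 bases after the transcription start (RefSeq, build GRCm38.p6). Of the 45 genes, 38 had an entry, and Ccna2, Cdc25c, Aurkb, Incenp, Kif20a, Tpx2 and Foxm1 had none. The first entry was used where a gene had several. Both strands were searched for the letters CCAAT, the core of the site of the factor NF-Y, which read ATTGG on the other strand. They were also searched for 2 forms of the cell cycle homology region (CHR), through which MuvB complexes are known to bind. The first of these is TTTGAA. On the other strand it reads TTCAAA. The other form is the palindrome TTCGAA. The CCAAT letters were in 28 of 38 promoters (73.7%), against 37.9% of promoters of 27025 genes, and the CHR letters in 30 of 38 (78.9%), against 19.4%. Both were in 25 of 38 (65.8%), against 7.7%, and 5 of 38 held neither. The median log2 fold change with 2APB added was -1.29 for the genes with the CHR letters and -1.44 for the 8 without, -1.31 with the CCAAT letters and -1.17 for the 10 without, and -1.05 for the 5 with neither. These differences were not tested.

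The promoters of the 4 genes with the largest change on adding 2APB among those with an entry, and of the 2 with the smallest, are shown from 170 bases before the start to 30 bases from it, in the direction of transcription, with the CCAAT or ATTGG letters and the CHR letters in capitals. They lie on the minus strand at chr9:70421525-70421724 for Ccnb2, chr9:22389177-22389376 for Anln, chr4:118437314-118437513 for Cdc20 and chr7:4812311-4812510 for Ube2s, and on the plus strand at chr2:131186778-131186977 for Cdc25b and chr15:102296123-102296322 for Espl1.
Ccnb2: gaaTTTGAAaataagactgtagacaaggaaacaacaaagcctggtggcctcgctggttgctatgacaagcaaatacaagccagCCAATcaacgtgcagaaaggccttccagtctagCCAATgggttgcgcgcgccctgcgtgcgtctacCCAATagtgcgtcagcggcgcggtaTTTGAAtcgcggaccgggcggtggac
Anln: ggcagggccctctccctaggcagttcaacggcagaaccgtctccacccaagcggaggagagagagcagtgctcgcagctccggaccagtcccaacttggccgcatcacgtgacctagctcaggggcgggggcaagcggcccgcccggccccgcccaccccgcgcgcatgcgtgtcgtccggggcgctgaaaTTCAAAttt
Cdc25b: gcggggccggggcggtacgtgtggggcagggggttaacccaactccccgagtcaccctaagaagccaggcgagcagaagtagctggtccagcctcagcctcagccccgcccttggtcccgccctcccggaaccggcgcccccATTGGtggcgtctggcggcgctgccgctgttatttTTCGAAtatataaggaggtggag
Cdc20: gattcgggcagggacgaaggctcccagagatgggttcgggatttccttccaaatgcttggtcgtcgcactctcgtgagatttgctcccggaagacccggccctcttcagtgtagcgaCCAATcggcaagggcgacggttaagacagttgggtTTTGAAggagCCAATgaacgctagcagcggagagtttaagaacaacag
Ube2s: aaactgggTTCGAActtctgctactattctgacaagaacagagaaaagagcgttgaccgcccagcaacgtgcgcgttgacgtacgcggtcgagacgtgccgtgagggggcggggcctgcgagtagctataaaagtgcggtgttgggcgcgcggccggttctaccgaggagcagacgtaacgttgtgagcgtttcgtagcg
Espl1: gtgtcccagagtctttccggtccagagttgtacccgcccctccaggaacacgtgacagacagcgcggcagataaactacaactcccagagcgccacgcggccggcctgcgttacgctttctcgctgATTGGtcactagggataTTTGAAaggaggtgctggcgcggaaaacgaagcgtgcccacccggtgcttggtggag

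Ccnb2 holds 3 CCAAT matches, the first letter of each 87, 54 and 21 bases before the start, and a CHR match beginning 167 bases before the start as well as another just after it. Cdc20 holds CCAAT matches 53 and 8 bases and a CHR match 18 bases before the start. Espl1 holds both kinds of letters, 44 and 27 bases before the start. Cdc25b holds an ATTGG match 28 bases before the start and a CHR match just after it. Anln holds 2 CHR matches after the start, the second of which runs past the printed end, and no CCAAT match in the 300 bases. In Ube2s a single CHR match lies 162 bases before the start. No CCAAT match overlaps a CHR match in these 6 promoters. The matches describe letters, not binding.

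Genes outside all these lists were ranked by how closely they followed the mean of the 45 over the 6 libraries, by Pearson correlation of log2 counts across 13121 genes. The closest was Zfp174 (r 0.995), whose change with 2APB added was small (-0.26), followed by Ptpdc1, Rtkn2, Atp11a, 2810417H13Rik, Cdca2, Osbpl3, Troap, Prr11 and Kmt2b (r 0.988). Of these 10, Rtkn2 (-2.14), Troap (-1.68), Cdca2 (-1.43) and 2810417H13Rik (-1.32) lay below the median change of the 45 with 2APB added (-1.30). Among the 45, each set against the mean of the other 44, the lowest correlations were those of Ube2s (-0.206) and Espl1 (0.0295). These are descriptions over 6 libraries in 3 groups, with no test.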

How the data were processed

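RNA of 6 cultures of NMuMG cells was sequenced as 50 bp single-end reads. The submitters' processing notes name FastQC 0.11.2, TopHat2 2.0.13, DESeq2 1.6.1 and the build mm10. The study's methods name featureCounts for gene counts, and a human build. The authors deposited unscaled gene counts, and every value was even, for a reason not given in the sources used here. Of the entry names, 25 had the form of dates and stayed in the fits.

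Counts were tested in R 4.3.3 with edgeR 4.0.16 (TMM scaling, quasi-likelihood F-test) in 1 fit of the 3 groups without covariates, over the 13355 genes that averaged 20 or more normalized counts, with Benjamini-Hochberg adjustment and a threshold of 0.05. The common biological coefficient of variation was 17.4%. With 2 replicates a group, p-values set a group difference against a spread between these cultures that was estimated over all groups and partly shared across genes. Alternatives used DESeq2 1.42.0, other scaling and filters, the replicate number as a block, single libraries left out and, chosen after seeing the data, a GC correction, halved counts and a crossed replicate block. The fit was also run on simulated data, from which no value is given here. Positions, lengths and GC content came from GENCODE M21 (GRCm38), which matched 98.7% of the entries. Promoters were searched with Python 3.11.15.

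The genes and lists were chosen with earlier results of these data known. Library values and full statistics are given for the gene of highest count in each role, for the 3 largest and 3 smallest changes with TGF-β and on adding 2APB, and for genes called against the majority. From each further list the 3 called genes with the largest change are named, with Cdkn1a, Cdkn1b, Cdkn2b, Wee1, Fzr1, E2f1 and Lin9 by choice. Other genes that are named were chosen after their values were seen. Of the genes listed as markers, Cldn3, Csn2 and Adgre1 were not analysed here.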

Additional observations from a re-analysis of the deposited data

How the results depend on the processing

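Under every alternative run, the counts of genes lower with TGF-β+2APB than with TGF-β (39) and than in DMSO (40) stayed within 1.5 times these values, as did the medians of the 45 in these 2 comparisons (-1.41 to -1.23 and -1.23 to -0.999). The median of TGF-β against DMSO ran from 0.0347 without DMSO replicate 1 to 0.27 without DMSO replicate 2. The alternatives were other scaling, other filters, DESeq2, the replicate block, fits of 4 libraries only, stricter thresholds, single libraries left out and, chosen after seeing the data, a GC correction, halved counts and a crossed block. Of the calls on adding 2APB, 32 of 39 were kept in all 16 alternatives at the same threshold. The 7 lost in at least 1 were Incenp, Bub1, Ttk, Ndc80, Kif11, Pttg1 and Mki67. Of the 40 genes lower with TGF-β+2APB than in DMSO, 32 were likewise kept in all 16 alternatives. The 8 lost in at least 1 were Bub1, Cenpe, Cenpf, Tpx2, Hmmr, Pttg1, Top2a and Foxm1.

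The 14 genes higher with TGF-β than in DMSO became 6 at an FDR of 0.01, 1 at a log2 fold change of at least 1, and 4 to 15 with 1 library left out. The 2 lower became 1 with DESeq2 size factors in edgeR, 1 with no filter, 0 with only the 4 libraries compared, 0 at an FDR of 0.01, 0 at a log2 fold change of at least 1, and 0 to 9 with 1 library left out. The 2 genes higher with TGF-β+2APB than in DMSO became 1 with library size alone, 1 at an FDR of 0.01, 0 at a log2 fold change of at least 1, and 1 to 2 with 1 library left out. The cause was not tested. Where a library was left out, the lone replicate was assumed to vary like the other groups. A library outside a comparison enters its fit only through the shared spread, the scaling and the filter, and leaving it out hardly moved the difference itself. On adding 2APB, Incenp stayed at -0.49 without either DMSO library. Kif23 with TGF-β went from -0.32 to -0.30 without either TGF-β+2APB library.

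With the replicate number as a block, 9 genes were higher and 1 lower with TGF-β, and 1 was higher with TGF-β+2APB than in DMSO. It moved no other count by over 1.5 times. The sources used here do not say that a shared number pairs replicates, and the correlations of deviations between same-numbered replicates were 0.147, -0.458 and -0.255 between groups. The block ended the calls of Aurkb, Nuf2, Tpx2, Racgap1, Top2a and Kif23 with TGF-β (edgeR FDR 0.0576 to 0.0906), of Incenp and Mki67 on adding 2APB (0.0744 and 0.0605), and of Hmmr, Pttg1 and Espl1 between TGF-β+2APB and DMSO (0.0523 to 0.0693). With crossed numbers the counts higher and lower were 14 and 2, 0 and 41, and 2 and 41 in the 3 comparisons. The share of all genes called with either block is not given here, so these counts cannot be set against it.

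Among the 19 genes given with full statistics, 13 of 912 values under the 16 alternatives at the same threshold changed sign, none of them for a change called in the fit of all libraries. One of the 13 was itself called, Cenpf with TGF-β without TGF-β replicate 1 (0.48, edgeR FDR 0.0394). With 1 library left out the log2 fold change of TGF-β against DMSO ran from -0.093 to 0.26 for Plk1, -0.90 to 0.48 for Cenpf, -0.11 to 0.18 for Spc25, -0.13 to 0.033 for Nek2 and -0.039 to 0.15 for Kif20a. On adding 2APB it ran from -0.19 to 0.0018 for Ube2s, and outside these 19 genes from -1.59 to 0.18 for Kif20b and -1.18 to 0.027 for Hmmr. Between TGF-β+2APB and DMSO it ran from -0.0802 to 0.10 for Incenp and from -0.10 to 0.13 for Mybl2. With library size alone these 2 genes gave -0.0572 and -0.0565. The lowest count of the 45 genes in any library was 110.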
